A study of Mus musculus with 6 samples.

Results

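The matrix metalloproteases (Mmp), the tissue inhibitors of metalloproteases (Timp), the disintegrin metalloproteases (Adam), their secreted relatives with thrombospondin repeats (Adamts) and the protease-like Adamts-like proteins (Adamtsl) were examined in mouse gastrocnemius, a calf muscle of mostly fast fibres. Members were taken by symbol. Of 84 symbols with these prefixes in a count table of 24054 genes, 44 reached a sum of at least 30 expected counts over the 6 libraries. Expected counts are the read numbers that RSEM assigned to each gene. The genes just inside this minimum were Adam11 (38.4 counts in all), Mmp3 (49 counts) and Adamts3 (57 counts). Those just outside were Adam8 (22 counts), Adam4 (20.8 counts) and Adamts17 (20.2 counts). Of the 40 symbols left out, 20 had 0 counts in every library.

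RNA-seq was run on 3 MI4KO and 3 MI4OE libraries from male C57BL/6 mice. MI4KO mice carry floxed Irf4 alleles deleted by Myl1-Cre, and MI4OE mice carry Myl1-Cre and an IRF4 transgene in Rosa26 behind a floxed stop. Myl1-Cre acts in skeletal muscle fibres, so other cells of the muscle keep their own Irf4 in both groups, and both groups carry Cre. The diet is in doubt, because the labels give a high fat diet for every library whereas the study describes chow, and ages are not given. Gastrocnemius without either manipulation was not analysed here, so the share of a difference that belongs to the loss or to the excess of IRF4 cannot be told apart. The libraries held 18828575 to 29239533 counts. Irf4, the check of the labels, had 6, 0 and 2 counts in MI4KO and 2864, 10557 and 5911 counts in MI4OE (edgeR quasi-likelihood test, adjusted p = 0.0055). Muscle fibre markers summed to between 208949 and 294000 TPM, a level corrected for transcript length.

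The extracellular matrix of muscle is made mostly by fibroblasts and is cut by secreted and membrane-bound zinc proteases. Mmp enzymes are made as inactive precursors; Mmp14 at the cell surface activates Mmp2 with Timp2 as its adaptor, and Timp proteins block the active site of Mmp, Adam and Adamts enzymes. Adam proteins mostly shed other membrane proteins, Adamts enzymes cut proteoglycans and procollagens, and Adamts-like proteins lack the protease domain and sit on microfibrils.

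IRF4 is a DNA-binding factor, so the windows around the start sites of members were read from RefSeq for the build GRCm38.p6, from 250 bases before to 50 bases after the start. The build of the deposited data is not stated and no position below comes from it. Windows were found for 29 of the 44 members, 32 windows in all. The letters AANNGAAA, the spaced GAAA pattern of the interferon regulatory factors, were searched on both strands. They stood in 3 member windows, those of Mmp14, Mmp3 and Adam19, or 9.38%, against 23.9% of all 32851 windows. Member windows were richer in G and C, with a median of 65.7% against 52.7% for all windows, and held a median of 21 CpG against 7. A match is a description of these letters and not a binding site. Mmp14 and Mmp3 are shown because they held the same 8 letters, on opposite strands. Adamtsl5 is shown as the member with the highest fold change among those with an unadjusted p under 0.05, and its window held no match. Capitals mark the match, which starts 206 bases before the start of Mmp14 on the plus strand (AAGAGAAA) and 201 bases before that of Mmp3 on the minus strand (printed as TTTCTCTT).
Mmp14, chr14:54431348-54431647, plus strand: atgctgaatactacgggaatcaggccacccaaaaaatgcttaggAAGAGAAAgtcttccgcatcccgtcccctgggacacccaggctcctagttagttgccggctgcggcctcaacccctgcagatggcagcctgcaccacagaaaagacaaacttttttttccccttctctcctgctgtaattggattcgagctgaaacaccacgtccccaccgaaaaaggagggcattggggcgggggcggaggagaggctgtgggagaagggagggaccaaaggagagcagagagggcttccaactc
Mmp3, chr9:7445572-7445871, plus strand: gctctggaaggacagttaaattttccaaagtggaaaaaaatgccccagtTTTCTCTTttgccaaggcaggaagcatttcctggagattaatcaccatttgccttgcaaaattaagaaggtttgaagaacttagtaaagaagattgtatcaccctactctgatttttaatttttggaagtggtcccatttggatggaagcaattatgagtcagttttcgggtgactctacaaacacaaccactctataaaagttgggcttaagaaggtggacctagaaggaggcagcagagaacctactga
Adamtsl5, chr10:80348399-80348698, minus strand: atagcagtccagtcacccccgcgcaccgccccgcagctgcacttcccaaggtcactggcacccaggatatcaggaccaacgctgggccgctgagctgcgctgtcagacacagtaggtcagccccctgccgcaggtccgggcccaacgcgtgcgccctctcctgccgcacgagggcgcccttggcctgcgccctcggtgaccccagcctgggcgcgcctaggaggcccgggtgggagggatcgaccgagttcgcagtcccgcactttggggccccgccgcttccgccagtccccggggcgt

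Inhibitors were the most abundant members. By mean TPM over the 6 libraries, Timp3 stood first at 39.9, followed by Timp2 at 32.6 and Timp4 at 26.1, and the spread between libraries within a group (SD of 3.78 to 16.2 TPM) does not separate these neighbours. The Timp family made up 42.5% to 49.1% of the summed TPM of all members in each library. Adam9 was the most abundant protease at 22.5 TPM, then Mmp15 at 14.0, Mmp2 at 10.6 and Adam15 at 10.5 TPM. In the same range, Adamtsl5 averaged 13.1 TPM. Only 8 members averaged at least 10 TPM, and 26 averaged less than 1 TPM. None of the 4 collagenases on the list (Mmp1a, Mmp1b, Mmp8 and Mmp13) reached the count minimum. Mmp8, which neutrophils carry, had 9 counts in all.

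**Figure D1:**
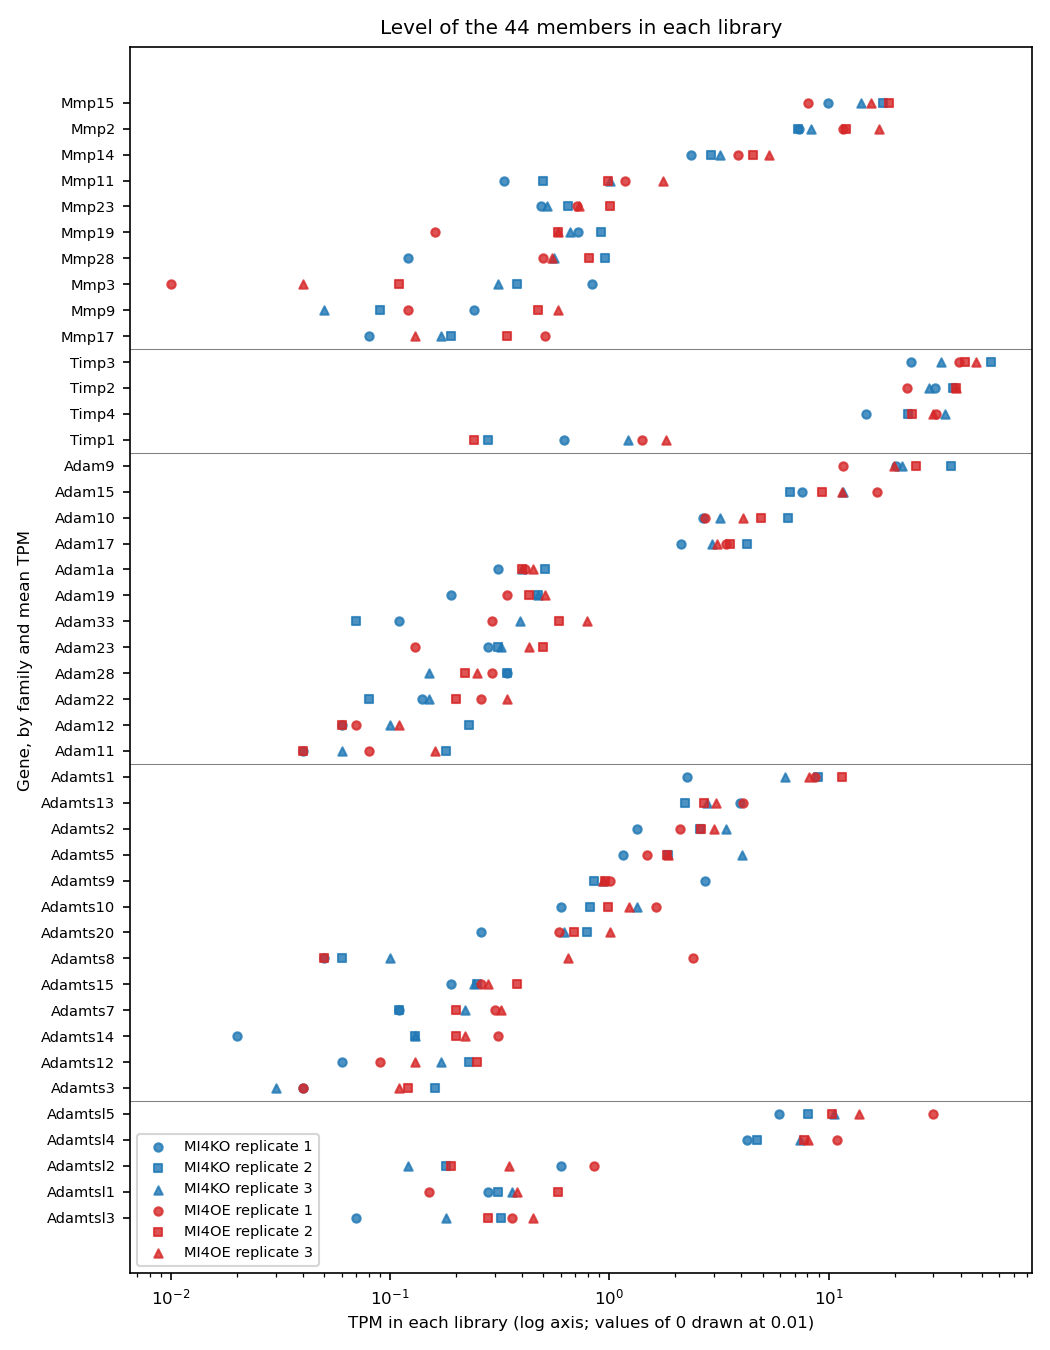
Level of each of the 44 members in each library, in TPM on a log axis, grouped by family and ordered by mean; blue marks are MI4KO and red marks MI4OE, and each shape is a replicate. Timp3, Timp2 and Timp4 lie between 14.8 and 55.1 TPM in every library, and the colours are mixed in most rows, with Mmp2 and Mmp14 among the rows where every red mark lies to the right of every blue mark.

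The question of the comparison was how these genes differ between muscle that lacks IRF4 and muscle that overexpresses it. Of the 44 members, 40 passed the filter on low counts and were tested; Adam11, Adamts8, Mmp3 and Mmp17 did not. No member reached an adjusted p of 0.05 in edgeR's quasi-likelihood test, where 3 of 12660 genes did (0.0237%), nor in DESeq2 (0.877% of genes) or edgeR's exact test (0.885% of genes). At an unadjusted p under 0.05 there were 4 members, or 10% of those tested, against 7.58% of all genes. These were Mmp2, Mmp14, Adamtsl5 and Adamtsl4, and all 4 were higher in MI4OE by at least 1.5-fold, a criterion that 4.36% of all genes met in that direction and 2.28% in the other. The fitted log2 fold change was above 0 for 31 of 40 members (77.5%), against 50% of all genes, with a median of 0.22 against a median of -4.3e-05. Levels did not overlap between the groups for 6 members that were higher in MI4OE (15% of those tested, 7.38% of all genes), namely Mmp2, Mmp14, Mmp23, Adam22, Adamts14 and Adamts15, and for 1 that was lower, Mmp19 (2.5%, against 5.48%). The filter asks for 10 counts at the median depth (0.379 CPM) in 3 libraries. It was met by all 3 MI4OE but not all MI4KO libraries for 7 of the 40, Adamts14 among them, and the reverse held for Mmp19, so these counts describe the tested members and support nothing further. The smallest p that an exact permutation test over 3 against 3 libraries allows is 0.1, so none is given for single genes.

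**Figure D2:**
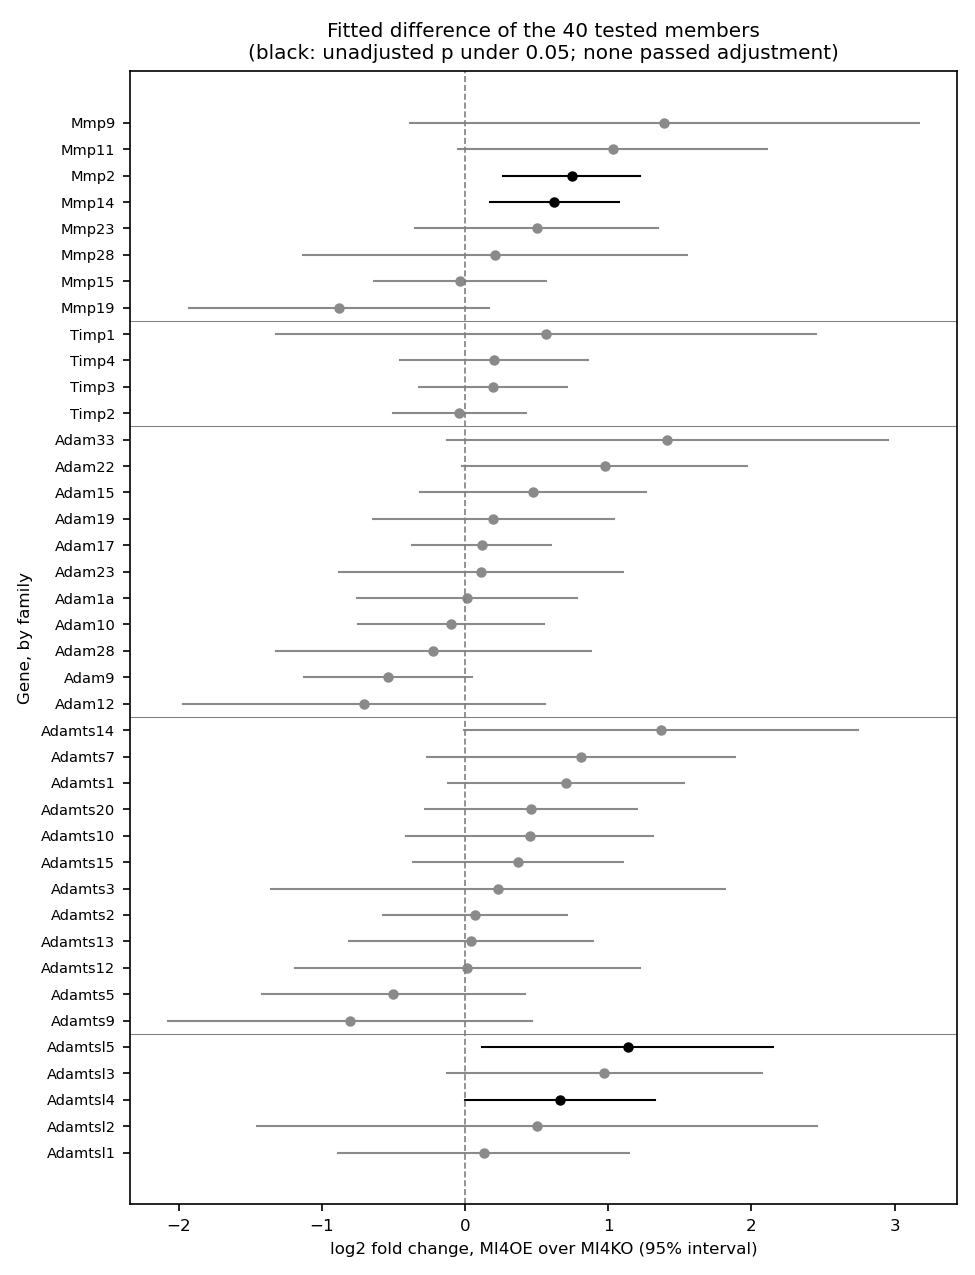
Fitted log2 fold change of MI4OE over MI4KO for each of the 40 tested members (points), with 95% intervals from edgeR's quasi-likelihood fit (lines), by family; black marks an unadjusted p under 0.05 and the dashed line is no difference. Mmp2, Mmp14, Adamtsl5 and Adamtsl4 are black, all to the right of 0, and none of the 40 passed adjustment over all genes.

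Gelatinases cleave denatured collagen and basement membrane. Mmp2, the gelatinase that fibroblasts make constitutively, had 16.4, 11.8 and 15.6 CPM (counts scaled to library size with TMM factors) in MI4KO, against 23.1, 20.5 and 29.7 CPM in MI4OE. Every MI4OE library was above every MI4KO library. Its log2 fold change was 0.74 (SE 0.205, 95% interval 0.27 to 1.22), a 1.68-fold difference with an unadjusted p of 0.0073 and an adjusted p of 0.519. Mmp9, the inducible gelatinase of leukocytes and injured muscle, was near the limit of detection, at 0.573, 0.158 and 0.101 CPM in MI4KO and 0.246, 0.839 and 1.06 CPM in MI4OE, where a count of 3 is worth 0.101 to 0.148 CPM. Those groups overlapped (log2 fold change 1.39, 95% interval -0.39 to 3.17, adjusted p = 0.737), and the value was 2.44 (unadjusted p = 0.0217) without MI4KO replicate 1 and 0.96 without MI4KO replicate 3.

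Membrane-type enzymes act at the cell surface. Mmp14, which activates Mmp2 and cuts fibrillar collagen, had 4.46, 4.0 and 5.11 CPM in MI4KO, against 6.54, 6.5 and 7.91 CPM in MI4OE. These groups did not overlap either, with a log2 fold change of 0.62 (SE 0.193, interval 0.18 to 1.07), an unadjusted p of 0.0128 and an adjusted p of 0.541. Mmp15, a relative that is more abundant in this muscle, ranged from 31.6 to 40.8 CPM in MI4KO and from 22.9 to 45.5 CPM in MI4OE, with a log2 fold change of -0.03 (interval -0.63 to 0.57) that turned to 0.03 when libraries were scaled to total counts. Mmp17, a GPI-anchored enzyme, was too low for the test, with 0.205 to 0.369 CPM in MI4KO and 0.265 to 1.18 CPM in MI4OE.

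Among the remaining Mmp genes, Mmp11, a stromelysin of stromal cells, stood at 0.532 to 1.38 CPM in MI4KO and 1.22 to 2.25 CPM in MI4OE (log2 fold change 1.03, interval -0.05 to 2.11). Mmp19 went the other way, at 1.76, 1.62 and 1.34 CPM in MI4KO and 0.344, 1.08 and 1.10 CPM in MI4OE. Its groups did not overlap, but its interval of -1.93 to 0.17 spans 0 and its adjusted p was 0.722. Mmp3, stromelysin-1, had 26, 9 and 10 counts in MI4KO and 0, 3 and 1 counts in MI4OE. Every MI4KO library was higher, but the gene reached the member minimum only through MI4KO and was too low for the test, so no fold change is given. Mmp3, Mmp11, Mmp17, Mmp23, Adamts8, Adamts9, Adamts14, Adamts15 and Adamtsl1 lie outside the rule for named genes and were picked with their values in view.

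The tissue inhibitors differed by less than the spread between libraries. Timp2, the adaptor in Mmp2 activation, stood at 82.4, 71.9 and 64.6 CPM in MI4KO and 54.5, 78.1 and 80.2 CPM in MI4OE (log2 fold change -0.04, interval -0.50 to 0.43). The sign of this value turned under total-count scaling and in TPM. Timp3, which binds to matrix and also blocks Adam17, ranged from 82.8 to 139.0 CPM in MI4KO and from 111.0 to 129.0 CPM in MI4OE, with a log2 fold change of 0.20 (interval -0.32 to 0.71). Timp4, an inhibitor enriched in heart and muscle, gave 0.20 as well (interval -0.45 to 0.86), and with 1 library left out Timp3 ran from 0.039 to 0.43 and Timp4 from 0.026 to 0.54. Timp1, the inducible member, was low, at 0.119 to 0.605 CPM in MI4KO and 0.105 to 0.839 CPM in MI4OE. Set against the proteases it binds, the ratio of Timp2 to Mmp2 in TPM was 4.19, 5.10 and 3.46 in MI4KO and 1.97, 3.17 and 2.26 in MI4OE. For Timp2 to Mmp14 it was 13.0, 12.7 and 8.94 in MI4KO and 5.90, 8.49 and 7.17 in MI4OE. Neither ratio overlapped between groups, whereas the ratio of the summed Timp to the summed Mmp family did, at 3.11, 3.65 and 3.34 in MI4KO and 3.55, 2.63 and 2.77 in MI4OE. The first 2 ratios were chosen after the values of their genes were seen, and none of the ratios says anything of protein.

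**Figure D3:**
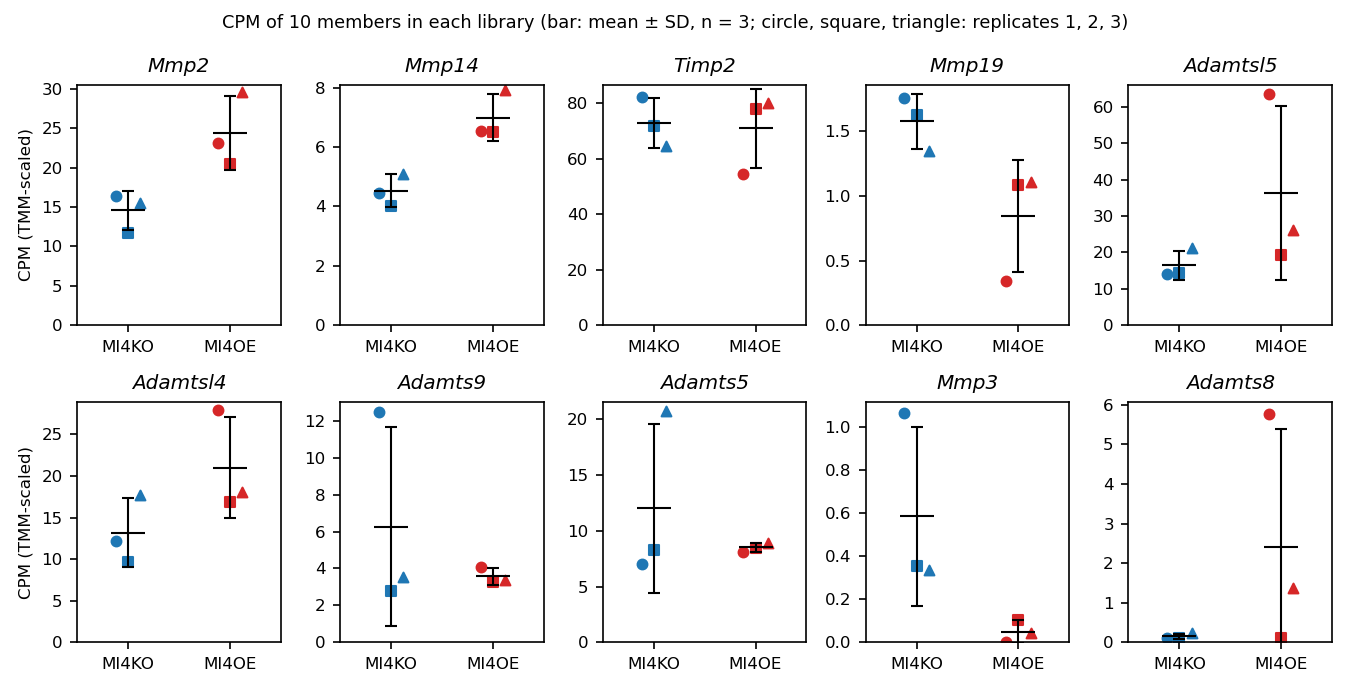
CPM of 10 members in each library, each panel with an axis from 0, for MI4KO (blue) and MI4OE (red); horizontal lines and bars are the mean ± SD (n = 3), and circles, squares and triangles are replicates 1, 2 and 3. Mmp2 and Mmp14 separate the groups, Timp2 does not, and a single library carries the mean of MI4OE for Adamtsl5 and that of MI4KO for Adamts9 and Adamts5; the 10 genes were chosen after their values were seen.

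Adam sheddases release growth factors and receptors from the cell surface. Adam9, the most abundant, stood at 61.2, 78.4 and 54.7 CPM in MI4KO and 31.0, 56.5 and 46.2 CPM in MI4OE, and the groups overlapped (log2 fold change -0.54, interval -1.12 to 0.05, adjusted p = 0.688). Adam10, the main Notch sheddase, gave -0.10 (interval -0.75 to 0.55) and Adam17, the tumour necrosis factor convertase, gave 0.12 (interval -0.37 to 0.60). Both intervals leave out a 2-fold difference in either direction. Adam15, a protein of endothelium and other adherent cells, ranged from 10.2 to 20.7 CPM in MI4KO and from 15 to 31.1 CPM in MI4OE (0.47, interval -0.31 to 1.26, and 0.13 without MI4OE replicate 1). Adam12 and Adam19, which are linked to muscle cell fusion and development, were low, at 0.245 to 0.951 CPM and 0.860 to 1.94 CPM over the 6 libraries. Their log2 fold changes were -0.71 (interval -1.97 to 0.56, and -0.18 without MI4KO replicate 2) and 0.20 (interval -0.64 to 1.04). Adam22, which has no protease activity, stood at 0.942, 0.396 and 0.873 CPM in MI4KO and 1.53, 1.05 and 1.81 CPM in MI4OE. Its groups did not overlap, with a log2 fold change of 0.97 (SE 0.427, interval -0.02 to 1.97) and an adjusted p of 0.668.

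Of 5 tested Adamts enzymes that cut proteoglycans, 3 had fold changes above 0, and none had an unadjusted p under 0.05. Adamts1, the most abundant Adamts, stood at 8.27, 23.5 and 19.4 CPM in MI4KO and 28.1, 32.0 and 23.3 CPM in MI4OE. MI4KO replicate 1 was the lowest library, and the log2 fold change of 0.71 (interval -0.12 to 1.53) was 0.37 without it. Adamts5, an aggrecanase, had 7.04, 8.24 and 20.7 CPM in MI4KO and 8.12, 8.49 and 8.88 CPM in MI4OE. MI4KO replicate 3 alone was high, and the log2 fold change of -0.50 became 0.14 without it. Adamts9 showed the same for another library, with 12.4, 2.77 and 3.56 CPM in MI4KO and 4.08, 3.29 and 3.36 CPM in MI4OE, and its -0.81 became 0.17 without MI4KO replicate 1.

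Adamts8 was at or near the floor in 4 libraries and high in a pair. Its counts were 3, 3 and 7 in MI4KO and 117, 3 and 31 in MI4OE, so it reached the member minimum only through MI4OE and no fold change is given. The 2 libraries with Adamts8 were also the 2 with the most counts of Myh7, the slow myosin heavy chain, which stood at 1603 CPM in MI4OE replicate 1, 162 CPM in replicate 3 and 0.280 CPM in replicate 2. In MI4KO it stood at 0.205, 20.5 and 1.04 CPM. MI4OE replicates 1 and 3 also had the 2 highest sums of fibroblast, endothelial, tendon and erythrocyte markers, so the match is not particular to Myh7. For tendon these were 76.8 and 56.6 TPM, against 42.8 TPM in the next library. The sums of Schwann cell, macrophage and adipocyte markers did not rank these 2 libraries highest. Myh7 lies outside the rule for named genes, and the part of slow fibres or other cell types in the values of Adamts8 was not tested. Among the procollagen N-proteinases, Adamts2, the leading enzyme, gave a log2 fold change of 0.07 (interval -0.57 to 0.71), and Adamts14, a minor one, had 0.0819, 0.357 and 0.437 CPM in MI4KO and 1.08, 0.594 and 0.662 CPM in MI4OE, with no fold change given because it passed the filter through MI4OE. Adamts13, which cuts von Willebrand factor, ranged from 4.08 to 10 CPM in MI4KO and from 5.21 to 9.35 CPM in MI4OE.

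All 5 Adamts-like genes had fitted fold changes above 0 with every library in, with a median of 0.67, but Adamtsl1 (0.13) turned to -0.30 without MI4OE replicate 2 and Adamtsl2 (0.50) to -0.39 without MI4OE replicate 1. Adamtsl5, a microfibril-binding protein, stood at 14.0, 14.3 and 21.1 CPM in MI4KO and 63.6, 19.2 and 26.1 CPM in MI4OE. MI4OE replicate 1 was far above the other libraries, and MI4OE replicate 2 lay below MI4KO replicate 3. Its log2 fold change was 1.14 (SE 0.436, interval 0.12 to 2.15, unadjusted p = 0.033, adjusted p = 0.607), and 0.45 without MI4OE replicate 1. Adamtsl4, which promotes fibrillin-1 assembly, stood at 12.2, 9.71 and 17.7 CPM in MI4KO and 28, 16.9 and 18.1 CPM in MI4OE. Here the groups overlapped, and the log2 fold change of 0.67 (SE 0.285, unadjusted p = 0.0497, adjusted p = 0.658) was 0.40 without MI4OE replicate 1. Adamtsl2, a regulator of TGF-beta availability, was highest in MI4KO replicate 1 (1.43 CPM) and MI4OE replicate 1 (1.82 CPM) and at most 0.662 CPM elsewhere.

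The matrix proteins that these enzymes cut, a list of 27 genes, were mostly above 0 on the same scale. Of 24 tested, 24 had fold changes above 0 (50% of all genes), with a median of 0.74. An unadjusted p under 0.05 was reached by 15 (62.5%, against 7.58% of all genes), and 13 were higher without overlap (54.2%, against 7.38%). None passed adjustment in the quasi-likelihood test, whereas DESeq2 called 6 (Col1a2, Col6a1, Col6a2, Fn1, Lamb1 and Eln; 0.877% of all genes) and the exact test called 5, the same genes without Col1a2 (0.885% of all genes). Fn1, fibronectin, stood at 13.6, 14.0 and 18.2 CPM in MI4KO and 56.3, 30.2 and 37.8 CPM in MI4OE (log2 fold change 1.44, SE 0.256, quasi-likelihood adjusted p = 0.422). Elastin (Eln) gave 1.09, decorin (Dcn) 0.81 and the collagen Col1a1 0.77. Of 15 tested genes for activators and partners, 1 had an unadjusted p under 0.05 (6.67%, near the share of all genes). This was Pcsk6, a proprotein convertase (log2 fold change 0.70), while Furin, a convertase that activates Mmp14, gave -0.15. Of 9 tested genes for other inhibitors and clearance, 4 had fold changes above 0 and 5 below, and 2 had an unadjusted p under 0.05 (22.2%). They were Reck, a membrane-anchored inhibitor of Mmp2, Mmp9 and Mmp14, at 0.246, 0.634 and 0.705 CPM in MI4KO and 1.18, 1.64 and 1.63 CPM in MI4OE (1.48, adjusted p = 0.521), and Papln, a papilin that overlapped between groups (1.67). Of 16 tested surface proteins that Adam and membrane-type enzymes shed, 4 (25%) were higher at that threshold, namely Notch1 (0.76), Jag1 (0.77), Cdh5 (1.04) and Cd44 (0.71). Of 5 other metalloproteases there was 1 (20%), Bmp1, the procollagen C-proteinase (0.90). The median log2 fold change was 0.05 for activators and partners and -0.15 for other inhibitors and clearance. It was 0.15 for shed surface proteins and 0.015 for other metalloproteases. With lists this short, a single gene moves these shares widely.

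No marker of another cell type passed adjustment in the quasi-likelihood test, and the marker lists are not independent of those above: Col1a1, Col1a2, Col3a1 and Dcn are in both the matrix protein and the fibroblast list, Comp in the matrix protein and tendon lists, and Cdh5 in the shed surface and endothelial lists. The 10 fibroblast markers summed to 195, 189 and 299 TPM in MI4KO and 406, 322 and 425 TPM in MI4OE, with 7 of 10 at an unadjusted p under 0.05 (7.58% of all genes) and a median log2 fold change of 0.76. Endothelial markers summed to 63.6, 119 and 118 TPM in MI4KO and 219, 137 and 150 TPM in MI4OE (5 of 10, median 0.73). Adipocyte markers were lower, with 7 of 8 at that threshold and a median of -3.60, and summed to 377, 971 and 2119 TPM in MI4KO and 743, 403 and 351 TPM in MI4OE, where the sums overlap. Fabp4 made up most of these sums in every library, and the other 7 markers summed to 56.9, 234 and 927 TPM in MI4KO and 12.5, 59.0 and 18.4 TPM in MI4OE. Of the 8 markers, 5 were lower without overlap (5.48% of all genes), and the exact test called 5 (Adipoq, Plin1, Cidec, Lep and Cfd) at an adjusted p under 0.05 (0.885% of all genes), where DESeq2 called 1, Plin1 (0.877%). Of 8 neutrophil markers none could be tested, and their sums lay between 0.800 and 7.39 TPM. Tendon markers gave 1 of 7 and a median of 1.13, Schwann cell markers 0 of 8 and a median of 0.90, macrophage markers 0 of 9 and a median of -0.19, and erythrocyte markers 1 of 5 and a median of 0.86. Muscle fibre markers gave 0 of 10 and a median of -0.31, with 9 of 10 fitted below 0. They summed to 294000, 277429 and 261780 TPM in MI4KO and 208949, 272663 and 259973 TPM in MI4OE, where the sums overlap. In bulk tissue, more cells of a type and more RNA per cell cannot be told apart, and the part of these cell types in the values of the members was not tested. Per 100 TPM of fibroblast markers, Mmp2 stood at 3.76, 3.84 and 2.77 in MI4KO and 2.85, 3.74 and 3.98 in MI4OE, and Mmp14 at 1.21, 1.54 and 1.07 in MI4KO and 0.950, 1.40 and 1.25 in MI4OE. On this scale, chosen after the values were seen, the groups overlapped for both genes; since the fibroblast sum itself differed between the groups, this is a description and not a test.

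**Figure D4:**
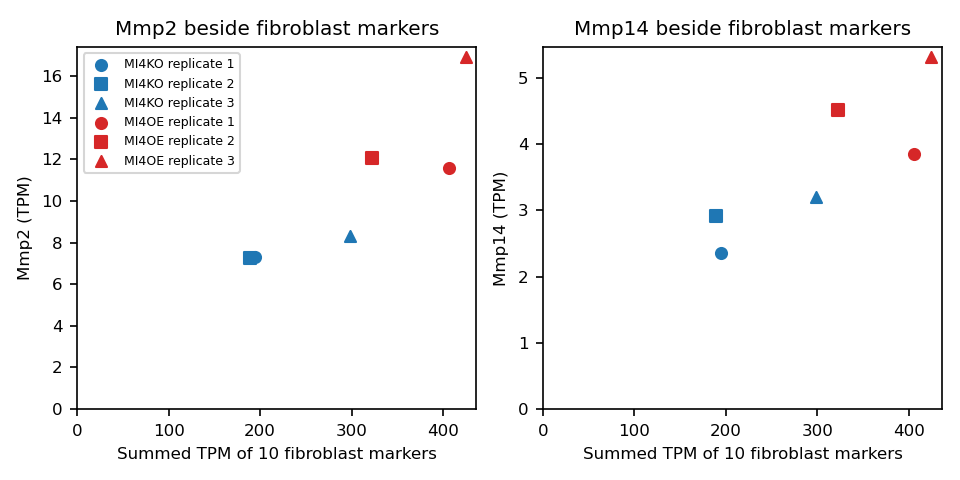
Level of Mmp2 and Mmp14 beside the summed TPM of 10 fibroblast markers, with 1 point per library (blue MI4KO, red MI4OE; shapes are replicates). The 3 MI4OE libraries have both the highest fibroblast sums, 322 to 425 TPM, and the highest Mmp2 and Mmp14; Col1a1, Col1a2, Col3a1 and Dcn are among the markers summed.

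RSEM also divided each gene among its RefSeq transcripts. Of the 44 members, 17 had counts for at least 2 transcripts, and the leading transcript was the same in every library for 6 of them. For Adam9, NM_001270996 took 100% of the counts in the 3 MI4KO libraries and in MI4OE replicate 1, whereas NM_007404 took 100% in MI4OE replicate 2 and 93.0% in replicate 3. Adam15 kept NM_009614 in the lead everywhere, at 57.9% to 86.0% of its counts. For transcripts that share nearly all of their sequence, single reads of 50 bases do not settle which was present, and no difference in transcript use is drawn from these shares.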

How the data were processed

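Gastrocnemius RNA of 3 MI4KO and 3 MI4OE mice was measured with stranded, mRNA-enriched libraries read as single 50-base reads. According to the labels and the study's methods, the authors demultiplexed with bcl2fastq 2.17, aligned reads to a UCSC transcript set with Bowtie2 2.1.0 and estimated expression with RSEM 1.2.15; the genome build is not given in the sources used here. The deposited expected counts are RSEM's unnormalized estimates, need not be whole, and share a read among the transcripts it matches, so near-identical genes and transcripts are uncertain. The TPM values deposited by the authors are RSEM's levels per length. The table of expected counts matched the single-library files, with 0 genes differing. The authors' tables of fold changes and p-values, with 12 columns of library values, were not used.

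Expected counts were rounded (10 members had fractional ones) and modelled in edgeR 4.0.16 under R 4.3.3, with filterByExpr (minimum count 10, total 15), TMM factors and the default quasi-likelihood test of genotype, adjusted by Benjamini-Hochberg over 12660 genes. The study used TMM and edgeR with 1.5-fold and p of 0.05 as its criterion. SE is the log2 fold change over the root of its F statistic, and 95% intervals use the total degrees of freedom. The fit was tested on simulated counts with known changes. Depth limits genes of few counts: 3 counts are worth 0.101 to 0.148 CPM, and only counting error is meant. The p-values measure the spread between these samples; nothing in the labels says whether libraries came from separate litters or days.

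Groups came from the genotype label. Replicate numbers are names only. The members, role groups, marker lists and pathway lists were chosen with earlier results of these data known. Named genes were Irf4; members with an unadjusted p under 0.05; members whose groups do not overlap at a mean CPM of at least 1; the 3 with the highest mean TPM in each family; 13 members of known muscle or matrix role; and pathway genes with an unadjusted p under 0.05. A planned search of protein sequences was not run, as no protein table was used here. Alternatives changed the filter, scaling, test (DESeq2 1.42.0, edgeR's exact test), unit (limma 3.58.1 on log2 TPM with 1 or 0.1 added) and left out each library.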

Additional observations from a re-analysis of the deposited data

How the results depend on the processing

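No member reached an adjusted p of 0.05 under any of the 17 alternatives. The smallest was 0.145, for Mmp2 in DESeq2. The count of all genes called rose from 3 to 111 in DESeq2 and 112 in edgeR's exact test, and lay between 1 and 4 with 1 library left out. The exact test was first run with design-matrix dispersions. A classic-dispersion version, added after the first count was seen to differ from an earlier one on these data, gave 108 genes. It did not settle the difference. Members at 1.5-fold and an unadjusted p under 0.05 numbered 4 (all genes at that p alone: 959 of 12660). There were 8 in both versions of the exact test (1074 and 1067) and 7 with limma on TPM with 0.1 added (776). With 1 library left out there were 3 to 8 (687 to 1390), the 8 without MI4KO replicate 3 (1019 of 12761) or MI4OE replicate 2 (1390 of 12845). With 1 library left out, Mmp2 left this count without MI4OE replicate 3 only by missing 1.5-fold (0.57, unadjusted p = 0.0399; its p was under 0.05 in all 17 alternatives), Mmp14 without that library (unadjusted p = 0.0701) or, again on fold alone, MI4KO replicate 2 (0.53, unadjusted p = 0.0441), Adamtsl5 without MI4OE replicate 1 (unadjusted p = 0.0958) or MI4KO replicate 1 or 2, and Adamtsl4 in all but the fits without MI4KO replicate 3 or MI4OE replicate 2. All 4 were higher in MI4OE, but lower calls appeared for Adam9 without MI4OE replicate 2 (-0.75) and for Mmp3 with no filter and without MI4OE replicate 1 or 3. At a mean CPM of at least 1 Adamts8 stood in place of Adamtsl4. Adamts8 was also called higher with no filter and without MI4KO replicate 3 or MI4OE replicate 2. Mmp3 reached the member minimum only through MI4KO and Adamts8 only through MI4OE, so the calls of these genes support nothing further. The members' median of 0.22 lay between 0.18 and 0.39 with 1 library left out, the highest without MI4KO replicate 3. Scaling to total counts moved the median of all genes to 0.0896 and that of members to 0.29. Timp2 turned to 0.053 under total counts and to 0.0104 and 0.00966 with limma on TPM with 1 and 0.1 added, and Mmp15 to 0.033 under total counts. With 1 library left out, log2 fold changes ran from -0.15 to 0.12 for Timp2, -0.25 to 0.20 for Mmp15, -0.25 to 0.22 for Adam10, -0.24 to 0.45 for Adamts13, -0.15 to 0.39 for Adamts2, -0.39 to 1.73 for Adamtsl2, -0.025 to 0.29 for Adam17, -0.067 to 0.39 for Adam19 and -0.77 to 0.14 for Adamts5, so their directions rest on single libraries. Values that kept their direction but moved with 1 library left out were Adam15 (0.13 to 0.71), Adam12 (-0.998 to -0.18), Timp1 (0.12 to 1.14), Timp3 (0.039 to 0.43), Timp4 (0.026 to 0.54) and Mmp9 (0.96 to 2.44). Irf4 missed the threshold without MI4KO replicate 1 (log2 fold change 12.6, adjusted p = 0.0587). Of 404 recomputed values for 24 genes, 383 kept their direction and side of the threshold, 20 turned in direction, and 1, that of Irf4, crossed the threshold. No member passed the threshold in any fit, so for members these count direction alone. No paired analysis was possible, as no label pairs libraries across genotypes. The causes of these shifts were not tested.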
